A study of Oryza sativa with 6 samples.

Results

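miR528 is a microRNA (miRNA) found in monocot plants, and its 3 entries were described here in leaves of the glyphosate-tolerant rice CA21. All rows whose name carried miR528 or MIR528 with no further digit were taken, whatever the species prefix or arm, which gave 3 of the 479 miRNA names in the table. They were osa-miR528-5p and osa-miR528-3p, the products of the 5′ and the 3′ arm of the rice hairpin, and bdi-MIR528-p5_1ss4GA, a sequence assigned to a Brachypodium hairpin. The rule used names only and no measured value, although earlier results of these data were known when miR528 was chosen.

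CA21 is a non-transgenic line that was obtained from the rice Zhejing30 by gamma irradiation and ethyl methane sulfonate and then crossed with the glyphosate-sensitive P1003, so both groups share 1 mutagenized background. Glyphosate blocks an enzyme of the shikimate pathway, by which plants make aromatic amino acids. Its seedlings received a spray of 2 mg per ml glyphosate at the third-leaf stage (GLY) or no spray (CK), and leaves were taken after the sensitive P1003 plants had died, at a time not given otherwise. There were 3 small RNA libraries per group, and neither pooling of leaves nor the plant behind each library is given. Values are listed below in the order of replicates 1, 2 and 3 of a group.

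A plant miRNA is cut from its hairpin as a short duplex, one strand of which is loaded into an Argonaute protein and guides the cleavage of matching messenger RNAs. In grasses, the 5p strand of miR528 is the guide strand, and its known targets include transcripts of copper-binding proteins such as ascorbate oxidase, an enzyme of the cell wall space that oxidizes ascorbate. In rice, miR528 is known for its part in antiviral defence through ascorbate oxidase, and in maize for the control of laccases and lignin. miR397, miR398 and miR408 are other plant families that respond to copper supply and target copper proteins.

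The sequences of the 3 entries are shown because the values are assigned to them. They are written 5′ to 3′ as DNA, and the capitals mark bases 2 to 8, the seed.
osa-miR528-5p: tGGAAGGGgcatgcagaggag
osa-miR528-3p: cCTGTGCTtgcctcttccatt
bdi-MIR528-p5_1ss4GA: aGCAGTGGaaggggcatgcaga
The rice entries were 21 nt long and the third was 22 nt. The 5p sequence began with T (U in the RNA), the base that is typical of plant miRNAs loaded into AGO1, and the 3p sequence began with C. None of the 3 seeds occurred in another name of the table (0 other names for each), so the values of miR528 could be read without a relative of the same seed.

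The third entry was a shifted copy of the 5p sequence. It began 5 bases upstream of the 5p start and ended 4 bases short of its end, and the 2 sequences shared a run of 17 bases, which is in capitals here.
osa-miR528-5p: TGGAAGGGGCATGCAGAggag
bdi-MIR528-p5_1ss4GA: agcagTGGAAGGGGCATGCAGA
The name of the third entry marks 1 substitution against the Brachypodium hairpin, at its position 4, outside the shared run. Its seed lay 5 bases upstream, and thus it differed from the seed of the mature miRNA.

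The arms paired with each other as the strands of a miRNA duplex do. RNAduplex placed 17 base pairs between them, 1 of them a G-U pair, with a free energy of -31.1 kcal per mol, an unbroken helix of 11 pairs and 2 unpaired bases at the 3′ end of each strand. The capitals mark the paired bases.
osa-miR528-5p: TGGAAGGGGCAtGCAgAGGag
osa-miR528-3p: CCTgTGCtTGCCTCTTCCAtt
Among the 451 distinct sequences outside the miR528 entries, the longest run shared with the 3p strand was 10 bases, against a median of 4 bases. It was found in 2 sequences of the copper family miR408, osa-miR408-3p and gma-miR408a-3p_L-1R+3. The run shared with osa-miR408-3p is shown in capitals.
osa-miR528-3p: cctgtgctTGCCTCTTCCatt
osa-miR408-3p: ctgcacTGCCTCTTCCctggc
For the 5p strand the longest run shared with a sequence outside the miR528 entries was 8 bases.

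The values are normalized counts per library, and their sum over all miRNAs ranged from 136071 in CK 1 to 177269 in GLY 2. Low values were mostly whole multiples of 1 step per library, and dividing by this step gave an estimated 97902 (GLY 3) to 304753 (CK 3) miRNA reads per library. One sprayed library, GLY 2, had a profile of its own. Its log2 values over the 251 tested miRNAs had a correlation of 0.640 with GLY 1 and 0.557 with GLY 3, which had 0.928 with each other, as a description over miRNAs. With the unsprayed libraries CK 1, CK 2 and CK 3 its correlation was 0.719, 0.674 and 0.634, and thus higher with CK 1 and CK 2 than with either other sprayed library. Each test was also run with each library left out in turn, GLY 2 among them. The miR2118 and miR2275 families, triggers of phased small RNAs in reproductive tissue and thus markers of another tissue, had 6 names (1 tested, 0 called), whose sum was 99.5 to 139.8 in CK and 46.3 to 585 in GLY, lowest in GLY 2. Apart from osa-MIR2118e-p5_2ss13TA19CT, their names were each at 0 to 10.1 in CK and at 0 in GLY, except for 25.8 and 10.3 for 2 names in GLY 3.

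The comparison of GLY with CK asked whether miR528 changed after the spray. The 5p strand rose in the sprayed leaves. Its normalized count was 789, 724 and 835 without the spray (CK), compared with 4400, 2936 and 4126 after it (GLY). The groups did not overlap, and the lowest sprayed library, GLY 2, lay 3.52-fold above the highest unsprayed one. The ratio of the group means was 4.88. In limma, fitted on all 251 tested miRNAs, the log2 fold change was 2.27 ± 0.26 (SE, n = 3 per group) with an adjusted p of 0.00748. Of the 2 miR528 names that could be tested, this 1 was called higher, against 7.57% of all tested miRNAs (11.2% were called in either direction). It ranked 3rd of the 251 by p and 20th by fold change, so that 7.97% had a fold change as large or larger. Over the 251 tested names the log2 fold changes had a median of -0.46, and the 5p strand lay 2.73 above this median. Under 4 other scalings of the libraries it lay 2.67 to 2.74 above it. A scaling shifts all fold changes alike, apart from the added 1 and the filter, so this distance could hardly change. The 5p strand was called under each of these 4 scalings (limma adjusted p from 0.00818 to 0.0436). Without CK 1 or CK 2 it was not called (limma adjusted p of 0.0510 and 0.0658, with log2 fold changes of 2.27 and 2.21), and without GLY 2 the adjusted p was 6.3e-04 and the log2 fold change 2.45. Of all 251 names, 2 were called without CK 1, 2 without CK 2 and 125 without GLY 2, against 28 in the main fit. In whole leaves, a change in RNA per cell and a change in the number of cells that make miR528 cannot be told apart.

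**Figure D1:**
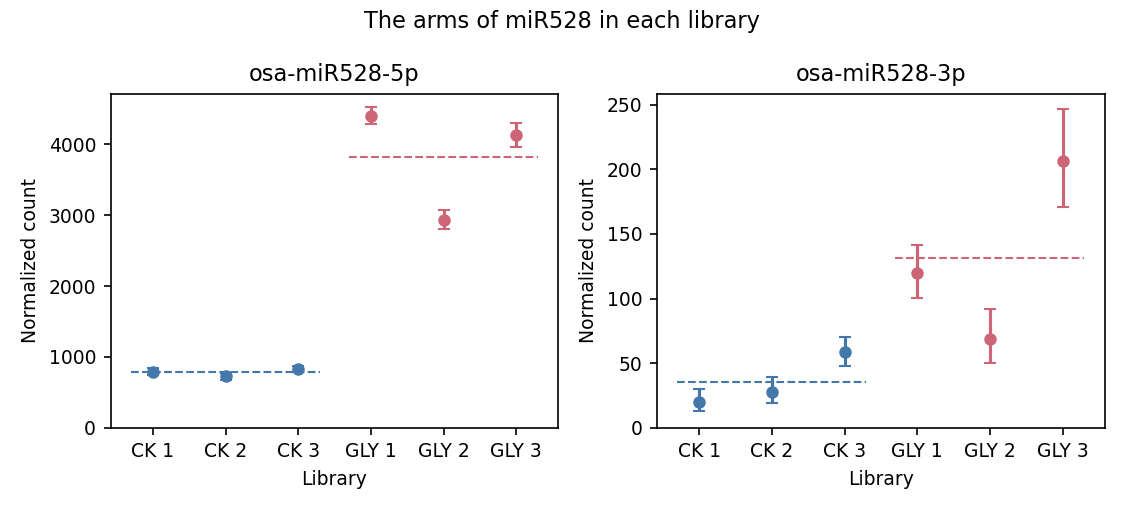
Normalized count (y axis, linear from 0) of osa-miR528-5p (left) and osa-miR528-3p (right) in each library (x axis), with 95% Poisson intervals of the estimated reads as bars and the mean of each group as a dashed line. The 3 GLY libraries of the 5p strand lie between 2936 and 4400, all above the CK libraries, while for the 3p strand GLY 2 at 68.7 lies close to CK 3 at 58.4.

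The count of the 5p strand was well determined in every library. All its values were whole numbers of steps within 0.01, namely 896, 826 and 1545 estimated reads for the unsprayed libraries and 5003, 1965 and 2398 for the sprayed ones. At this depth counting error alone gives a coefficient of variation of 1.41% to 3.48% per library. The measured coefficient of variation was 7.12% among the CK libraries and 20.4% among the GLY libraries, so the spread between libraries exceeded counting error in both groups. The spread in CK was small for this table, in which the median over tested miRNAs was 25.8% in CK and 56.2% in GLY. These medians cover names of every level, and the 5p strand was 28th of the 251 by mean in CK. They are thus no comparison with names of like level. Such intervals cover counting error only, since reads amplified by PCR are not independent molecules.

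The 3p strand is the partner of the guide strand in the duplex. Its normalized count was 20.3, 28.1 and 58.4 without the spray, compared with 120, 68.7 and 206 after it. GLY 3 was the highest and CK 1 the lowest, and the groups did not overlap, but GLY 2 was only 1.18-fold above CK 3. Both osa- names thus had groups without overlap and higher values in GLY, as had 13.9% of all tested miRNAs. The log2 fold change of the 3p strand was 1.86 ± 0.60 (SE, n = 3 per group) with a limma adjusted p of 0.109, so it was not called. Its unadjusted limma p was 0.0208. These values rested on 23, 32 and 108 estimated reads for CK, compared with 136, 46 and 120 for GLY. The 95% Poisson intervals of the 2 closest libraries overlapped, from 47.9 to 70.5 in normalized counts for CK 3 and from 50.3 to 91.7 for GLY 2. The 3p strand was called only without GLY 2 (limma adjusted p of 0.0131, log2 fold change of 2.25). In that fit 125 of the 251 tested names were called, against 28 in the main fit, so this call is not particular to the 3p strand.

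The shifted entry bdi-MIR528-p5_1ss4GA was near the floor of the table and was not tested. Its normalized count was 3.78 for CK 3 and 5.28 for GLY 1, or 7 and 6 estimated reads, and was listed at 0 in the other 4 libraries. No group difference was detectable at this depth. Only 13 to 21 names per library were listed with under 5 estimated reads, so a listed 0 is not proof of 0 reads.

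The arms were present in unequal amounts in every library. The 5p strand exceeded the 3p strand 39.0-fold, 25.8-fold and 14.3-fold without the spray, and 36.8-fold, 42.7-fold and 19.98-fold after it. The lowest ratio was thus found in CK 3 and the highest in GLY 2, and the groups overlapped. As a share of both strands, the 3p strand made up 2.50%, 3.73% and 6.53% of CK, compared with 2.65%, 2.29% and 4.77% of GLY. The log2 ratio of 3p to 5p was -4.60 ± 0.73 (SD, n = 3) in CK and -4.98 ± 0.58 in GLY. This difference of -0.38 lay within the spread between libraries (two-sided exact permutation test, p = 0.60, where 0.10 is the smallest p that 3 against 3 libraries can give). The difference ranged from -0.72 to 0.0074 when 1 library was left out, with the change of sign without CK 3. The ratio does not depend on how the libraries were scaled.

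Summed over its 3 names, the miR528 family was called higher, as were 7.78% of the 90 tested families. Its log2 fold change was 2.25 ± 0.26 (SE, n = 3 per group) with a limma adjusted p of 0.00433. It was called in all 6 fits without 1 library (limma adjusted p from 3.7e-04 to 0.0398). The lowest of these was without GLY 2, where 47 of the 90 families were called, against 8 in the main fit. It was not called with upper-quartile scaling (limma adjusted p of 0.0536) or with scaling by the number of valid small RNA reads (0.0621), at log2 fold changes of 1.95 and 2.46. Its normalized count was 810, 752 and 897 for CK, compared with 4524, 3004 and 4332 for GLY, without overlap, as for 14.4% of families that were higher in every GLY library. Of all miRNA values, the family held 0.595%, 0.508% and 0.545% without the spray, compared with 2.91%, 1.69% and 2.57% after it. Every sprayed library lay above every unsprayed one, with means of 0.549% ± 0.0437 (SD, n = 3) and 2.39% ± 0.629 (two-sided exact permutation test, p = 0.10, the smallest possible).

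The same order was found with the number of valid small RNA reads as denominator, which counts all small RNAs and not only miRNAs. In the paper's read totals, valid reads were a smaller share of raw reads in every GLY library than in any CK library. Losses to the adaptor and length filter were larger in every GLY library. This difference goes with the spray, and its part in the values was not tested. The 5p strand had an estimated 105, 94.8 and 176 reads per 1000000 valid reads without the spray, compared with 1098, 379 and 738 after it. CK 3 stood above the other CK libraries on this scale, in contrast to the normalized counts, and GLY 2 remained the lowest of the sprayed libraries. For the 3p strand the same quantity was 2.71, 3.67 and 12.3 for CK, compared with 29.8, 8.87 and 37.0 for GLY, so GLY 2 lay below CK 3 and the groups overlapped.

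The 5p strand moved up among the abundant miRNAs of the leaf. It was the 25th, 29th and 28th most abundant name without the spray and the 12th, 15th and 13th after it. The places of the 3p strand, which was not called, were 132 to 193 in CK and 70 to 157 in GLY and overlapped. Places are counted among the 258 to 370 names above 0 in a library. By mean level in CK, the 5p strand (783 ± 55.8, SD) stood between osa-miR535-5p (823 ± 180), which targets SPL transcription factors, and osa-miR172a (721 ± 82.7), which targets AP2-like transcription factors. The values of the 3 names overlapped in CK. In GLY it stood at 3820 ± 778 between osa-miR168a-5p (4656 ± 1376), the regulator of AGO1, and osa-miR167d-5p_R+1 (3333 ± 1214), which targets auxin response factors, again with overlapping values. As a scale of abundance, the most abundant miR168 name, osa-miR168a-3p_L-3, was 26.2 to 30.4 times as high as the 5p strand in the CK libraries and 2.47 to 5.42 times as high in the GLY libraries. For osa-miR396e-5p, which targets growth-regulating factors, the same ratio was 17.8 to 23.9 in CK and 2.26 to 3.54 in GLY.

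The other copper-responsive families held 10 names, of which 8 were tested. Of these 8, 7 were called higher and 0 lower, against 7.57% and 3.59% of all tested miRNAs. Several are opposite arms of the same hairpin by name, such as osa-MIR397b-p5 and osa-MIR397b-p3, so the 8 are not independent. All 8 lay higher in each GLY library than in any CK library, as did 13.9% of all tested miRNAs. For osa-miR398a and osa-MIR398a-p5, listed at 0 in every CK library, this order was fixed in advance. They passed the filter through the GLY libraries alone. Both are among the 7 called, so neither count gains support from them. The median log2 fold change of the 6 tested names above 0 in a CK library was 2.53 and their range 2.13 to 3.69, which spans the value of the 5p strand, against a median of -0.46 over all tested miRNAs. The median of all 8, 3.02, includes 2 names listed at 0 in every CK library, whose fitted folds depend on the added 1. Copper families were chosen for this list with earlier results of these libraries known. Leaving out CK 1 or CK 2 left 1 of these calls, where 2 of all 251 tested names were called in each fit. Leaving out GLY 1 or GLY 3 left 4, where 21 and 14 of all tested names were called. The number was 4 with upper-quartile scaling (14 called among all) and 3 with the replicate number as a block (6 called among all). The block also kept the 5p strand (limma adjusted p of 0.0337).

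**Figure D2:**
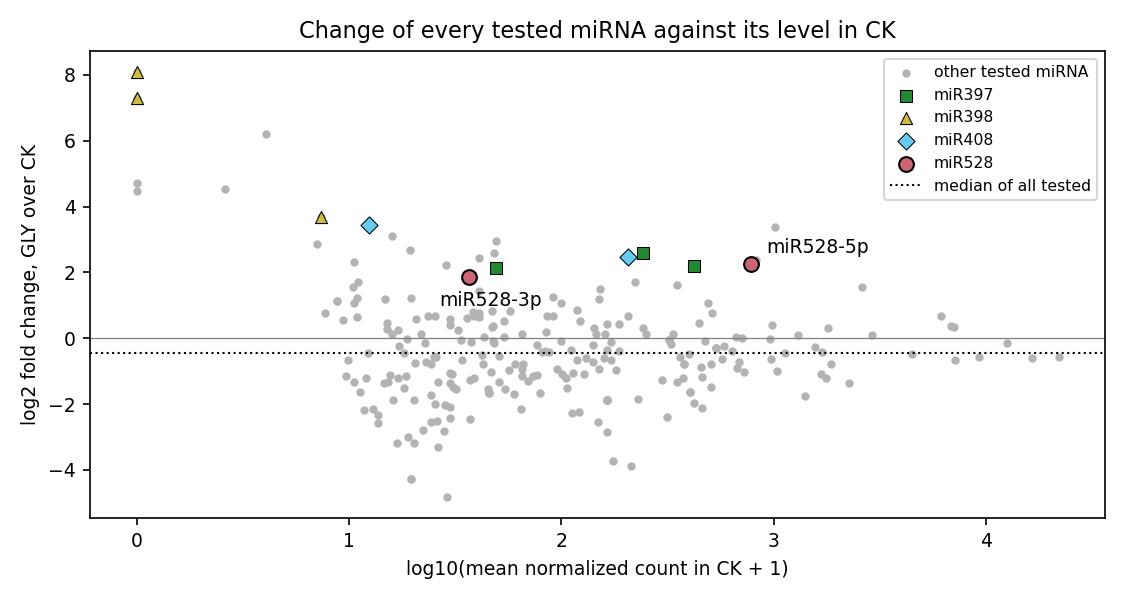
Limma log2 fold change of GLY over CK (y axis) against log10 of the mean normalized count in CK plus 1 (x axis) for the 251 tested miRNAs, each point being 1 name. The 5p strand of miR528 combines a high level in CK with a log2 fold change of 2.27, far above the median of -0.46 (dotted line), and the copper families miR397, miR398 and miR408 all lie at 2.13 or more. The 2 miR398 names at 0 in every CK library have fitted values that depend on the added 1.

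The miR397 family, a regulator of laccases, summed to 646, 593 and 893 without the spray, compared with 3388, 3653 and 3919 after it. Its names osa-MIR397b-p5, osa-MIR397b-p3 and osa-MIR397a-p5 were called higher, with log2 fold changes of 2.21, 2.58 and 2.13 (limma adjusted p of 0.0108, 0.0145 and 0.0352). The log2 ratio of the miR528 to the miR397 family was 0.33, 0.34 and 0.0070 for CK, compared with 0.42, -0.28 and 0.14 for GLY. The groups overlapped, and GLY 2 was the only one with less miR528 than miR397. The change of this ratio was -0.13 (two-sided exact permutation test, p = 0.70, also 0.70 when adjusted over 3 families), and it ranged from -0.29 to 0.055 when 1 library was left out, positive only without GLY 2.

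The miR408 family, whose targets include plantacyanins and laccases, summed to 179, 202 and 265 without the spray, compared with 1490, 683 and 2035 after it. Its strand osa-miR408-3p had a log2 fold change of 2.47 (limma adjusted p of 0.0319) and osa-miR408-5p_L+1R-1 one of 3.45 (0.0145). The names gma-miR408a-3p_L-1R+3 and mdm-miR408a_L-1R+3, which share a sequence, were at 4.40 in GLY 1, 20.2 in GLY 2 and 0 elsewhere and were not tested. The log2 ratio of the miR528 to the miR408 family was 2.17, 1.89 and 1.76 for CK, compared with 1.60, 2.14 and 1.09 for GLY. GLY 3 was the lowest and the groups overlapped, with a change of -0.33 (two-sided exact permutation test, p = 0.40, or 0.60 adjusted over 3 families).

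The miR398 family, known to target superoxide dismutases that bind copper and zinc, was the one whose ratio to miR528 did not overlap between the groups. Its names osa-miR398a and osa-MIR398a-p5 were listed at 0 in all CK libraries and were called higher (limma adjusted p of 0.00802 and 0.00651), and osa-miR398b had 10.6, 0 and 8.65 for CK, compared with 74.7, 37.3 and 80.9 for GLY, and was not called (0.0871). The log2 ratio of the miR528 to the miR398 family, with 1 added to each sum, was 6.13, 9.56 and 6.54 for CK, compared with 1.84, 3.76 and 3.10 for GLY. Its change of -4.51 had a two-sided exact permutation p of 0.10, the smallest possible, or 0.30 adjusted over 3 families, and was -2.85 with 10 added. Since the miR398 family was near 0 in CK, the size of this change depends on the added value.

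Of the summed values of the 4 families, miR528 made up 49.2%, 48.6% and 43.5% without the spray, compared with 42.4%, 39.7% and 40.1% after it. Every sprayed library lay below every unsprayed one in this share, which is given as a description. The total includes the miR398 family, which summed to 10.6, 0 and 8.65 without the spray, compared with 1266, 221 and 504 after it. As given above, the ratios of miR528 to miR397 and to miR408 overlapped between the groups. The lower share is thus no sign of a loss against each of the other families, and a share without miR398 was not tested. The sum of the 4 families was 1547 to 2064 in CK and 7561 to 10791 in GLY. These 4 families made up 1.04% to 1.25% of all miRNA values in CK and 4.27% to 6.87% in GLY.

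**Figure D3:**
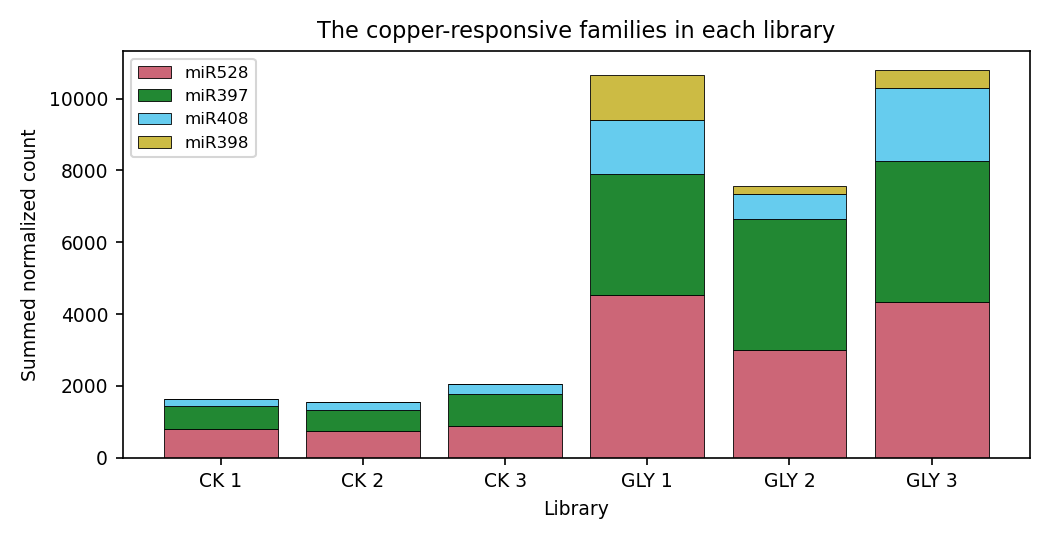
Summed normalized count (y axis, from 0) of the families miR528, miR397, miR408 and miR398 in each library (x axis), stacked. miR528 makes up 43.5% to 49.2% of the bar in the CK libraries and 39.7% to 42.4% in the GLY libraries, and GLY 2 has the lowest bar of the sprayed libraries.

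The miRNAs whose profile was most like that of the 5p strand were found by the root mean square difference of log2(value + 1) over the 6 libraries, each profile being centred on its own mean. Over the 250 other tested names this difference had a median of 1.67 and ranged from 0.28 to 3.56. The closest were osa-MIR397a-p5 (0.28), osa-MIR810b-p3 (0.28), osa-MIR6251-p3 (0.34), osa-MIR397b-p5 (0.37) and osa-MIR397b-p3 (0.38), so that all 3 names of the miR397 family were among the first 5. Of these, osa-MIR810b-p3 had 207, 197 and 260 without the spray, compared with 828, 589 and 786 after it, with GLY 2 again the lowest of the sprayed libraries, and was called higher (limma adjusted p of 0.0145). The level of osa-MIR6251-p3 was 7.93, 8.77 and 13.5 for CK, compared with 36.1, 26.9 and 43.0 for GLY, and it was not called (0.0917). The 3p strand, from the same hairpin as the 5p strand, came only 14th, with a difference of 0.56. Its largest departure from the 5p strand was its high value in CK 3.

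**Figure D4:**
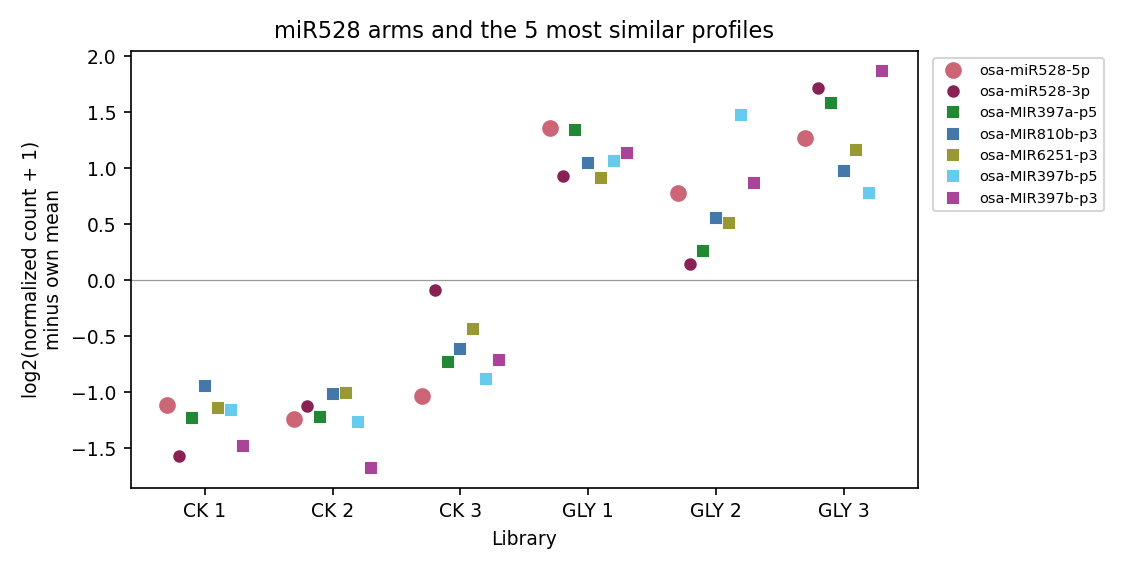
log2(normalized count + 1) minus its own mean over the 6 libraries (y axis) in each library (x axis), for the arms of miR528 (circles) and the 5 names with the smallest root mean square difference from osa-miR528-5p (squares). All 7 names lie below 0 in the CK libraries and above 0 in the GLY libraries, and all but osa-MIR397b-p5 are lowest in GLY 2 among the sprayed libraries. The 5 names were chosen for this likeness over the same libraries, so their shared pattern is no separate result.

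Entries that match tRNA or rRNA fragments, taken as a sign of RNA quality, had 6 names of 6 families, of which 5 were tested and 0 were called. Their share of all values was 10.7%, 12.5% and 4.24% for CK, compared with 11.4%, 10.6% and 10.7% for GLY. CK 3 was thus the library that differed in this share, while the share of valid reads described above separated the groups. Without these entries in the denominator the share of the miR528 family was 0.667%, 0.580% and 0.569% for CK, compared with 3.29%, 1.90% and 2.88% for GLY. Within this list, osa-miR5072_L-4 had 69.6, 64.9 and 23.2 for CK, compared with 403, 0 and 819 for GLY, and osa-miR5077_L-1_1ss5GA had 92.5, 129 and 48.6, compared with 460, 17.9 and 926. Both were low in GLY 2, in which the miR528 strands were also lowest among the sprayed libraries. The sum of the whole list went the other way, at 17732, 18852 and 17971 for GLY, and was highest in GLY 2. The part of these entries in the result was not tested.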

How the data were processed

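Total RNA of leaves was made into TruSeq small RNA libraries and sequenced single-end on an Illumina HiSeq. The authors removed adaptors, reads under the minimum length and other RNA classes with ACGT101-miR (version not stated) and named miRNAs by miRBase. The deposited signal values are called normalized counts per the file headers. How the libraries were scaled is not stated in the paper or labels.

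Of 582 rows, 103 exact repeats were dropped. The step of each library (the value of 1 read) was estimated from values under 60. Of these, 78.5% to 83.5% were whole within 0.01, too few to use the table as counts. Names with 10 or more in at least 3 libraries were tested on log2(value + 1) with limma 3.58.1 in R 4.3.3 (trend and robust options, no block), with Benjamini-Hochberg adjustment over all tested names and calls at an adjusted p under 0.05. Fold changes are on this scale, which understates changes of low values. Families were tested on summed values. The study's count model needs counts and was not used. Single values were compared by exact permutation tests. The duplex was computed with ViennaRNA 2.7.2. Valid read totals of the study served for 1 scaling.

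The fit was tested on simulated data. Named are all miR528 and copper-family names, the 5 closest profiles, the neighbours in level and the top miR168 and miR396 names, with any others given as marker values. The members and lists were chosen with earlier results of these data known. Since nothing says that the libraries come from separate plants, each p-value refers to the spread among these 3 libraries per group alone, which may be technical. No rice genome or miRNA annotation was used here, so no genome position is given.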

Additional observations from a re-analysis of the deposited data

How the results depend on the processing

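The log2 fold change of the 5p strand kept its sign in all 17 alternatives (1.97 to 2.48) and its call in 15. When 1 library was left out it ranged from 2.15 to 2.45, and the call was lost without CK 1 or CK 2. The 3p strand (1.46 to 2.28 over alternatives and over fits without 1 library) was called in 1, without GLY 2. The family sum kept its call in 14 of 16, and ranged from 2.14 to 2.44 without 1 library. It was lost at 1.95 with upper-quartile scaling and at 2.46 with valid-read scaling. The number of called miRNAs, 28 of 251 tested, became 14 with upper-quartile scaling and 12 with valid-read scaling. With 10 or more in all 6 libraries it was 17, of only 157 tested. It was 2 to 125 without 1 library, lowest without CK 1 or CK 2 and highest without GLY 2. The number of called families, 8 of 90 tested, became 3 with upper-quartile scaling and 2 with valid-read scaling. Without a filter on low values it was 5, of 139 tested. It was 3 to 47 without 1 library, highest without GLY 2. The copper names called higher, 7, became 4 with upper-quartile scaling, 4 with 10 or more in all 6 libraries (4 tested), and 1 to 8 without 1 library. The change in the ratio of 3p to 5p turned to 0.0074 without CK 3 (-0.72 to 0.0074), and that of miR528 to miR397 to 0.055 without GLY 2 (-0.29 to 0.055). The cause was not tested.

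The deviations of same-numbered libraries had correlations of -0.39, 0.094 and 0.47 over tested miRNAs, over 0.1 only for number 3, so the numbers were not taken as pairs. With the replicate block, 6 miRNAs, 4 families and 3 copper names were called, and the 5p strand stayed called at 2.27. The share of miR528 had a sign-flip p of 0.25, the smallest that 3 pairs allow.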

Other observations

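The place of the 5p strand among abundant miRNAs was looked at with a limit set after the values were seen. Of the 42 tested names with a mean of 500 or more in CK, 3 were called higher by limma, namely osa-miR1432-5p_R+1, osa-miR528-5p and osa-miR535-5p. Over all 251 tested names 19 were called higher (7.57%), so calls were not more frequent among the abundant names. The 42 had a median log2 fold change of -0.33. Of the 20 tested names with a log2 fold change at least as large as that of the 5p strand, 15 had a mean under 50 in CK. In absolute terms the 5p strand gained 3037 normalized counts from CK to GLY, the 4th largest gain of the 251, after osa-miR1432-5p_R+1 (9612), osa-miR156a_L+1 (5596) and osa-miR535-5p (4014). Its coefficient of variation was lower in CK than that of all but 9 tested names, and in GLY than that of all but 31, with names of every level included.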
